A study of Mus musculus with 3 samples.

Results

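The Ly6 genes examined here are Ly6a, Ly6c1, Ly6c2, Ly6d, Ly6e, Ly6g and Ly6i, 7 of the 32285 genes in the count matrices, taken by their symbols. They were described in peripheral blood mononuclear cells (PBMCs) of female C57BL/6 mice profiled by single-cell RNA sequencing in droplets, where 1 library each came from young mice (8 weeks), aged mice (16 months) and aged-GA mice (16 months, given glycyrrhizic acid, GA, for 1 month). GA, a compound of licorice root, was injected into the tail vein every other day, and the study's methods give its control group PBS by the same route, while the labels list no treatment for the young and aged samples. Several mice stood behind each group in the study, but neither the labels nor the methods say how their blood was pooled, so each group was 1 sample and no test between groups was possible.

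Ly6 genes encode small proteins of the LY6/uPAR family, which carry a cysteine-rich LU domain and sit on the outer face of the cell membrane on a glycosylphosphatidylinositol anchor. Antibodies to them are everyday tools for telling blood cells apart: Ly6a encodes Sca-1, known from haematopoietic stem cells and activated lymphocytes, Ly6c1 and Ly6c2 together make the antigen Ly6C that divides monocytes into classical and nonclassical (patrolling) cells and rises on memory CD8 T cells, and Ly6g marks neutrophils. Ly6d is used as a mark of B lineage cells, and Ly6e, the most widely expressed of the group, is known as an interferon-induced gene that restricts the entry of coronaviruses.

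All 7 genes lie on chromosome 15 between positions 74762056 and 75159126 (GRCm38), a stretch of 397071 bases. Ly6c1 (15:75044018-75048830) and Ly6c2 (15:75108158-75111970), both on the minus strand, are the closest pair, with coding sequences identical at 97.71% of positions and 9 of 393 bases different. Next in likeness were Ly6a and Ly6i (86.32%), whereas Ly6d and Ly6e shared 50.7% to 54.08% of coding bases with any other member. The final 120 coding bases of the Ly6c pair are printed because the split between these genes is the main contrast in T cells, and they lie in exon 4, which also holds the 3′ end that the library kit reads. Both are given 5′ to 3′ on the coding strand, at chr15:75045405-75045524 for Ly6c1 and chr15:75108546-75108665 for Ly6c2, with the 2 bases that differ in capitals:
Ly6c1: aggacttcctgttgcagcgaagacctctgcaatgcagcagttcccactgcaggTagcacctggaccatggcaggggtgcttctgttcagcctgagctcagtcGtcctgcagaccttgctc
Ly6c2: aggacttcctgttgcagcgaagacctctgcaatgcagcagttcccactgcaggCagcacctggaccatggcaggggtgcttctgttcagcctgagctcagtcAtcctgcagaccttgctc
Within the final 500 bases of the 2 transcripts, 35 of 411 runs of 90 bases (8.52%) were the same in Ly6c1 and Ly6c2, and 0 were shared by any of the other 5 genes, so that most reads of either gene could be placed. Counts of the Ly6c pair are still uncertain by the reads that fall in the shared runs.

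RefSeq promoter windows (GRCm38.p6, from 250 bases before to 50 after the start) matched 3 of the 7 genes, namely Ly6c1, Ly6c2 and Ly6g. Stretches of 102 bases ahead of the annotated starts are printed to show how alike the promoters of genes with unlike patterns are. They lie at chr15:75048937-75049038 (minus strand), chr15:75112080-75112181 (minus strand) and chr15:75155104-75155205 (plus strand), with a run of 12 bases common to the 3 genes in capitals:
Ly6c1: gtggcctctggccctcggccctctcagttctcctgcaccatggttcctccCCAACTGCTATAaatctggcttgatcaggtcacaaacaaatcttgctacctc
Ly6c2: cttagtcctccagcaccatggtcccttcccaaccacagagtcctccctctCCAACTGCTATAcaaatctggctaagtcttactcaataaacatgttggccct
Ly6g: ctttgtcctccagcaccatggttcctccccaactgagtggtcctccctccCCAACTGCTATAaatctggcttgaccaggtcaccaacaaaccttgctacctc
CCAACTGCTATA, searched on both strands, was found in 6 of 32851 promoter windows (0.0183%), all of them windows of Ly6a2, Ly6c1, Ly6c2 or Ly6g. The letters TTCNNNGAA, the GAS element of STAT factors, stood in 8.3% of all windows and a core of the interferon-stimulated response element, a pair of GAAA boxes with any 2 bases between them, in 3.44%. Neither, on either strand, was in the window from which each printed stretch was taken. Any further windows of these 3 genes were not searched one by one.

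After filtering, 8851 young, 10238 aged and 12648 aged-GA cells remained, with a median of 4671, 3810 and 4752 unique molecular identifiers (UMIs, 1 per captured transcript) per cell, and between 50 and 62 barcodes were shared by any pair of libraries. Cells were placed in classes by marker genes that included none of the 7 Ly6 genes. Naive CD4 T cells numbered 862, 213 and 300 in the young, aged and aged-GA libraries, memory CD4 T cells 51, 217 and 374, naive CD8 T cells 1014, 164 and 296, memory CD8 T cells 335, 541 and 1129, and B cells 2401, 4482 and 5902. The young library held few myeloid cells: 2 classical monocytes against 845 and 155, 52 nonclassical monocytes against 475 and 207, and 15 neutrophils against 847 and 549, although neutrophils are not mononuclear cells. A further 2755, 939 and 1415 T cells met neither the naive nor the memory rule or lacked a clear Cd4 or Cd8 signal, and these held 60.1%, 48.6% and 38.2% of all Ly6c1 UMIs. Barcodes with few genes and mostly haemoglobin UMIs, labelled red cells here, numbered 941, 5460 and 3812.

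Levels are given as CPM, a gene's UMIs as a proportion of all UMIs in that class, brought to the same class total in each library in the order young, aged, aged-GA. Intervals are exact at 95% and cover counting error only, since they hold no spread between mice. As the kit reads 1 end of each transcript, and the Ly6c1 and Ly6c2 transcripts have 844 and 822 bases, the shares of UMIs between this pair were compared without a length correction. Comparisons of classes were fitted with edgeR's quasi-likelihood test on UMIs summed per library and class, with the library as a block. The 3 libraries serve as the replicates, though they differ in age and treatment. The fit draws each gene's spread toward that of other genes. The SEs and adjusted p-values therefore do not measure how far a single gene's change varied among the 3 libraries.

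**Figure D1:**
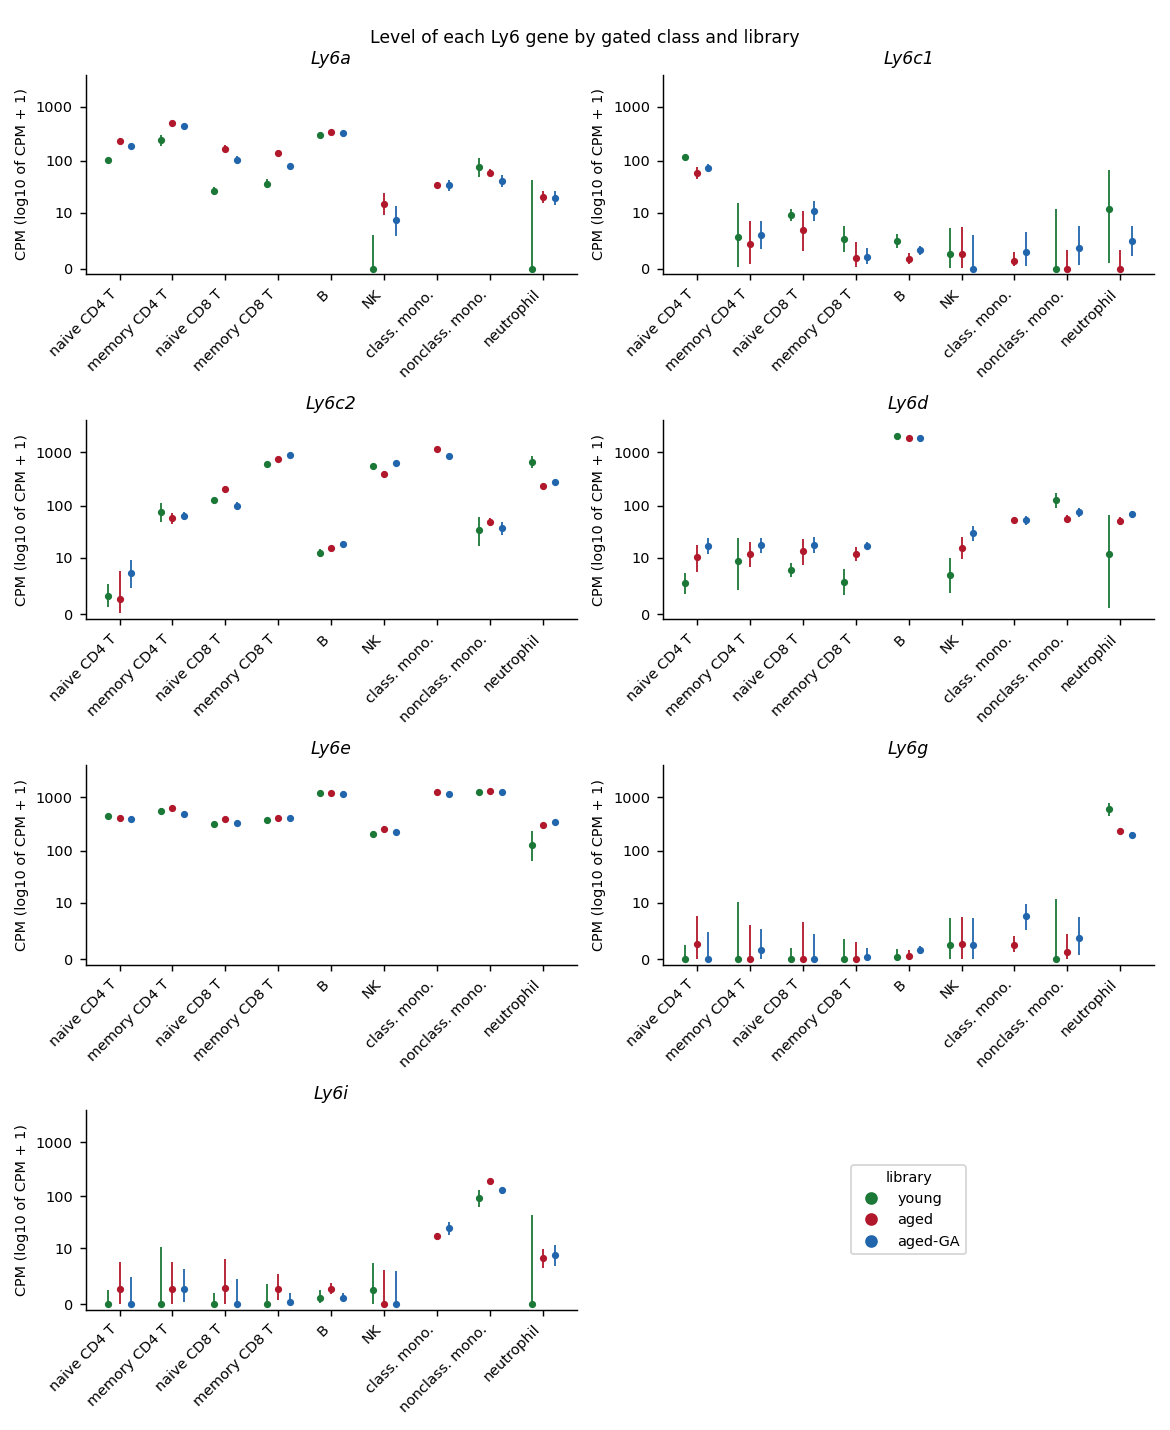
Level of each Ly6 gene (CPM, log10 of CPM + 1) by gated cell class, with points for the young, aged and aged-GA libraries and bars for exact Poisson 95% intervals. Ly6d stood highest in B cells at 1816 to 1979 CPM, Ly6g was near 0 outside neutrophils, Ly6i peaked in nonclassical monocytes and Ly6c1 in naive CD4 T cells; the young library held 2 classical monocytes and is left out of that class.

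The Ly6c pair was split between T cell classes. Ly6c1 was the Ly6c gene of naive CD4 T cells, and Ly6c2 that of CD8 T cells and of memory CD4 T cells, in each of the 3 libraries. Ly6c1 had 115, 58.5 and 72.7 CPM in naive CD4 T cells but 2.84, 1.83 and 3.32 CPM in memory CD4 T cells. Its level was 8.86, 4.15 and 10.97 CPM in naive CD8 and 2.60, 0.59 and 0.66 CPM in memory CD8 T cells. Every naive CD4 value lay above every value of the other T cell classes, and among T cells naive CD8 came next in each library, with an interval that overlapped that of the class behind it.

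Ly6c2 ran the other way. In naive CD4 T cells it had 1.13, 0.93 and 4.65 CPM, from 5, 1 and 8 UMIs, and in memory CD4 T cells 76.6, 58.7 and 65.4 CPM. In CD8 T cells it had 127, 202 and 101 CPM in the naive class and 588, 731 and 866 CPM in the memory class. The 4 classes kept the order memory CD8, naive CD8, memory CD4, naive CD4 in each library, with no overlap between neighbouring intervals.

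Written as a share of the UMIs of both genes, Ly6c1 made up 99.03%, 98.44% and 93.98% in naive CD4 T cells (exact binomial intervals 97.74 to 99.68, 91.6 to 99.96 and 88.49 to 97.37). In memory CD4 T cells the share was 3.57%, 3.03% and 4.83%, in naive CD8 T cells 6.52%, 2.01% and 9.81%, and in memory CD8 T cells 0.441%, 0.0808% and 0.0762%. The naive CD4 class thus stood on the opposite side of an even split from the other 3 classes in all libraries.

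**Figure D2:**
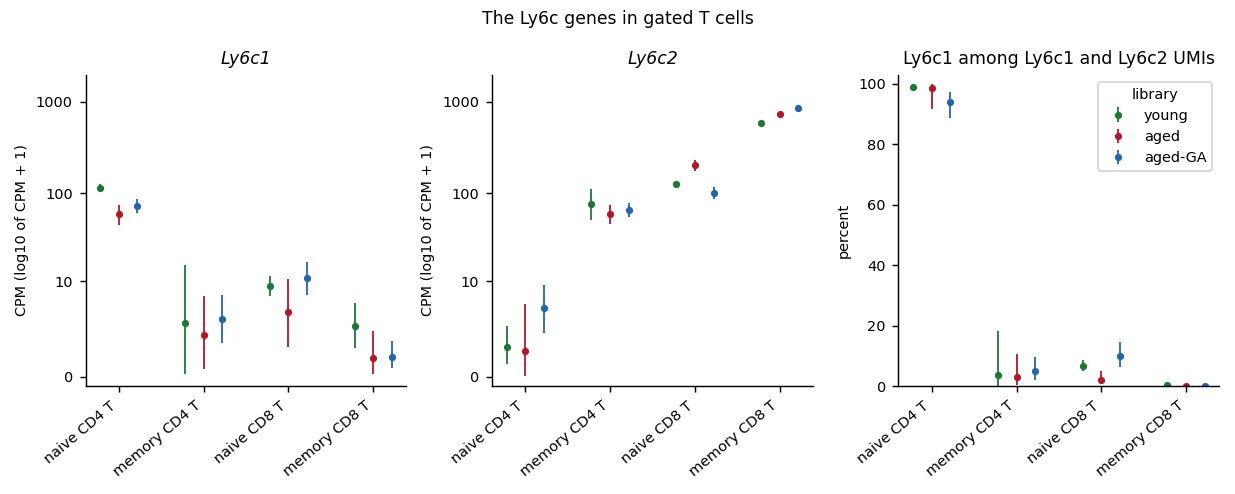
Levels of Ly6c1 and Ly6c2 (CPM, log10 of CPM + 1, with exact Poisson 95% intervals) and the share of Ly6c1 among the UMIs of both (percent, exact binomial 95% intervals) in naive and memory CD4 and CD8 T cells of the 3 libraries. The share was 93.98% to 99.03% in naive CD4 T cells and at most 9.81% in the other classes.

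Between memory and naive CD8 T cells, Ly6c2 was higher by 2.26 ± 0.13 on the log2 scale (SE, adjusted p = 1.7e-14, edgeR quasi-likelihood test with Benjamini-Hochberg adjustment over all genes) and Ly6c1 lower, with a log2 change of -3.03 ± 0.47 (adjusted p = 1.2e-05, edgeR). These were 2 of the 5 Ly6 genes that passed the filter on low counts, beside 17.0% of all genes called in that comparison, where Ly6g and Ly6i had too few UMIs. With gates read after thinning each cell to 1000 UMIs, which left 13, 60 and 86 memory CD8 T cells, the Ly6c2 change was smaller at 0.93 ± 0.17 (adjusted p = 2.6e-05, edgeR) and Ly6c1 did not pass the filter on low counts. The Ly6c1 change was -3.84 without the young and -2.10 without the aged-GA library. It rested on 7, 2 and 6 Ly6c1 UMIs in memory and 51, 4 and 21 in naive CD8 T cells. The memory CD8 levels of Ly6c1 were near those of B cells (2.25, 0.50 and 1.21 CPM), its background. Between memory and naive CD4 T cells, Ly6c2 was higher by 4.67 ± 0.36 (adjusted p = 1.2e-06, edgeR) and Ly6c1 lower, at -4.95 ± 0.26 (adjusted p = 6.0e-08, edgeR). There 3 of 5 Ly6 genes were called, against 22.5% of all genes, the third being Ly6a. The Ly6c2 change was 3.99 without the young and 5.59 without the aged-GA library.

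Naive CD8 and naive CD4 T cells differed in 4 of the 5 genes, against 13.7% of all genes called. Ly6c2 was higher in naive CD8 T cells by 6.12 ± 0.22 (adjusted p = 2.7e-21, edgeR), and Ly6c1 lower with -3.39 ± 0.16 (adjusted p = 5.2e-18, edgeR). Without the young library the Ly6c2 change was 5.46 and without aged-GA 7.05, and with gates thinned to 1000 UMIs Ly6c2 was at 5.08 and Ly6c1 at -7.77. The memory gates took deeper cells (a median of 7698 UMIs in memory against 5449 in naive CD8 T cells of the young library), so the shares of cells were taken after thinning.

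After each cell was thinned to 1000 UMIs, a Ly6c2 UMI was seen in 37.6%, 45.1% and 47.7% of memory CD8 T cells (75.8%, 72.1% and 83.7% unthinned). The share was 9.17%, 10.98% and 5.41% in naive CD8 T cells (24.8%, 34.8% and 22.6% unthinned) and 0.626%, 1.27% and 1.34% in B cells, taken as the background for Ly6c2. This background need not be free of Ly6c2. Its level was 12.4, 15.6 and 18.5 CPM in B cells against 1.13, 0.93 and 4.65 CPM in naive CD4 T cells. Memory CD4 T cells had 7.84%, 4.15% and 4.01%, above that background in each library, and naive CD4 T cells 0 of 862, 1 of 213 and 0 of 300, which is within it. A Ly6c1 UMI was found in 9.51%, 4.22% and 6.33% of naive CD4 T cells (82, 9 and 19 cells), against 0.0835%, 0 and 0.0848% of B cells. No naive CD4 T cell of any library carried UMIs of both genes at this depth, and 1 memory CD8 T cell in each library did. Those were the only memory CD8 T cells with a Ly6c1 UMI. With so few cells positive for the rarer gene, these counts cannot tell whether a cell uses both.

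Ly6a, which encodes Sca-1, had its highest levels in memory CD4 T cells and B cells, with plasma cells of the aged libraries beside them (338 and 327 CPM), and was low in NK cells, neutrophils and classical monocytes. Nonclassical monocytes had 76.5, 59.7 and 41.4 CPM, more than both CD8 T cell classes in the young library only, and the 21 dendritic cells of the aged library had 184 CPM. In memory CD4 T cells it had 238, 512 and 440 CPM and in naive CD4 T cells 101, 233 and 187 CPM. In CD8 T cells the levels were 26.8, 168 and 105 CPM in the naive class and 36.8, 138 and 80.5 CPM in the memory class. The young library had the lowest value in each of these 4 classes and the aged library the highest.

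Ly6a was higher in memory than in naive CD4 T cells by 0.89 ± 0.09 on the log2 scale (adjusted p = 1.0e-05, edgeR) and lower in naive CD8 than in naive CD4 T cells, at -1.04 ± 0.14 (adjusted p = 5.2e-07, edgeR). The latter gap was widest in the young library (26.8 against 101 CPM) and narrower in the aged (168 against 233) and aged-GA libraries (105 against 187). Between memory and naive CD8 T cells the log2 change of Ly6a, -0.27 ± 0.12, did not pass the threshold (adjusted p = 0.134, edgeR), though it did without the young library (-0.47, adjusted p = 0.0012, edgeR).

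Aged over young, Ly6a was the only Ly6 gene past 2-fold in T cells among those counted, that is with at least 100 UMIs in both libraries together, and it passed in all 4 classes. Its log2 ratio was 1.20 (0.98 to 1.43) in naive CD4, where 3.49% of all counted genes were past 2-fold, and 1.10 (0.77 to 1.45) in memory CD4 T cells, where 3.79% were. In naive CD8 T cells it was 2.61 (2.32 to 2.98), beside 3.37% of genes, and in memory CD8 T cells 1.88 (1.59 to 2.24), beside 5.74%. The memory CD4 ratio fell to 0.34 when cells were gated after thinning to 3000 UMIs, a setting chosen after seeing the data that left 22 young cells in that class. Among genes under 100 UMIs, Ly6d, the gene of B cells, had ratios of 1.60 (0.59 to 3.22) in naive CD4, 1.14 (0.22 to 2.25) in naive CD8 and 1.72 (0.92 to 3.33) in memory CD8 T cells, and Ly6c1 had -1.18 (-5.44 to 0.26) in memory CD8 T cells.

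Aged-GA over aged, Ly6a had log2 ratios of -0.32 (-0.56 to -0.07) in naive CD4, -0.22 (-0.37 to -0.06) in memory CD4, -0.68 (-0.99 to -0.38) in naive CD8 and -0.77 (-0.95 to -0.61) in memory CD8 T cells. Each interval lay below 0 and none of the ratios was past 2-fold. Both contrasts use the same aged library. The share of naive CD8 T cells with a Ly6a UMI, thinned to 1000, was 2.37% (1.52 to 3.50), 9.76% (5.68 to 15.4) and 8.11% (5.26 to 11.8), and unthinned 9.37%, 49.4% and 34.8%. In memory CD8 T cells it was 2.69%, 11.8% and 9.21%, in naive CD4 T cells 8.70%, 19.2% and 15%, and in NK cells, which served as the background for Ly6a, 0, 1.05% and 0.353%.

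Markers of other cells in the T cell classes also differed between libraries, and their part in the Ly6a result was not tested. The summed level of 6 B cell markers in T cells was 10.6 to 21.5 CPM in the young, 42.2 to 62.7 in the aged and 56.4 to 80.6 in the aged-GA library, and all 6 had UMIs in each T cell class of the latter pair of libraries. The 7 monocyte markers summed to 154 to 224, 314 to 439 and 201 to 313 CPM, and the 11 neutrophil markers to 0 to 2.84, 37.0 to 56.9 and 22.0 to 36.0 CPM. All 3 sums were thus higher in the aged than in the young library, as Ly6a was. Aged-GA over aged, where Ly6a was lower, the monocyte and neutrophil sums were lower in all 4 classes, but the B cell sum was higher in 3 of 4 (44.6 and 56.4 CPM in naive CD4, 42.2 and 80.6 in memory CD4, 48.8 and 66.9 in naive CD8, and 62.7 and 61.1 in memory CD8 T cells). Csf1r, Clec4a1 and Clec4a3 were at 0 in naive T cells of the young library. Ly6a itself was at 13.2, 59.9 and 94.6 CPM in red cell barcodes. Haemoglobin UMIs were left out of those totals (377901, 1151827 and 940655 UMIs), unlike in the cell classes. In NK cells Ly6a was at 0, 15.04 and 6.92 CPM. The young value came from 0 UMIs, where 3 UMIs would have been 2.59 CPM. In classical monocytes it had 35.1 CPM (aged) and 34.3 CPM (aged-GA), and in neutrophils 20.5 and 19.5 CPM, below every T cell class of the same library. In B cells Ly6a had 340 and 325 CPM, above every T cell class of the same library except memory CD4. The red cell value of the aged-GA library, on its own total, lay above the 80.5 CPM of memory CD8 T cells.

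**Figure D3:**
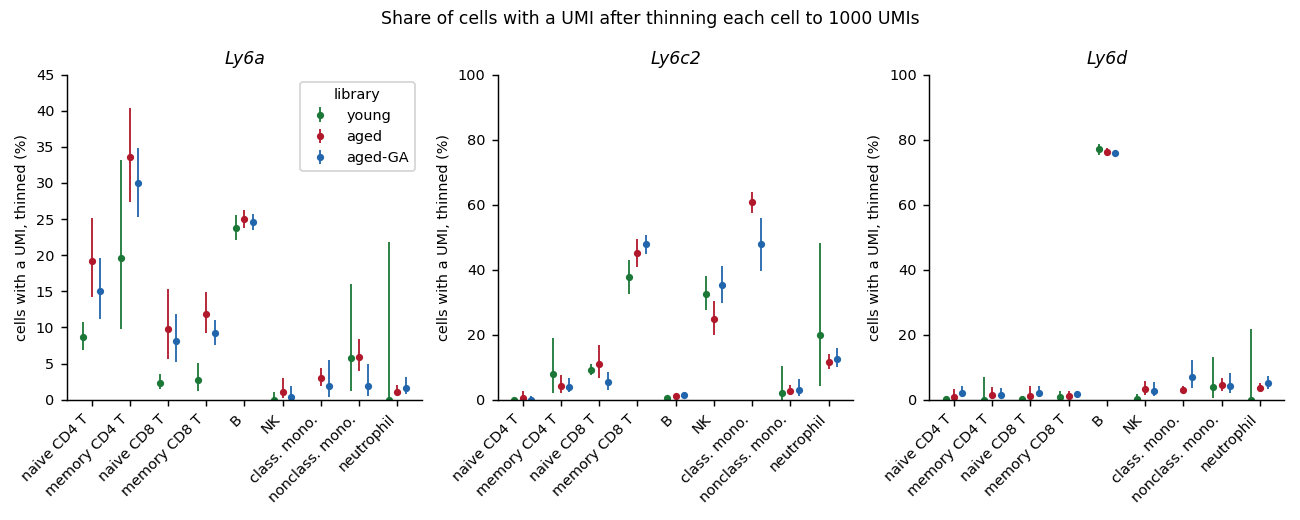
Percent of cells with at least 1 UMI of Ly6a, Ly6c2 and Ly6d after thinning each cell to 1000 UMIs, by class and library, with exact binomial 95% intervals. Ly6a was found in 2.37% to 2.69% of young CD8 T cells and in 8.11% to 11.8% of those of the aged libraries, Ly6c2 in 37.6% to 47.7% of memory CD8 T cells and Ly6d in 75.8% to 77.1% of B cells.

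B cells were marked by Ly6d. It had 1979, 1816 and 1819 CPM there and 2.71 to 18.3 CPM in the T cell classes, with 90.02% to 91.44% of all its UMIs in kept cells coming from B cells, a class that held 21.2% to 38.3% of all UMIs. A Ly6d UMI was seen in 77.1%, 76.3% and 75.8% of thinned B cells, and in 0.308%, 3.16% and 2.83% of NK cells, its background. Shares in naive and memory T cells of the aged libraries (0.939% to 2.03%) were below that background. Within B cells, Ly6d had 1926, 1775 and 1811 CPM in cells with Fcer2a, the CD23 gene of follicular B cells, and 1862, 1730 and 1683 CPM in cells with Fcrl5, Zbtb20 or Mzb1, log2 ratios of -0.05, -0.04 and -0.11 of which the last had an interval below 0 (-0.15 to -0.06).

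Against naive T cells, B cells were higher in Ly6d by 7.51 ± 0.29 on the log2 scale (adjusted p = 1.0e-08, edgeR). They were also higher in Ly6e by 1.49 ± 0.05 (adjusted p = 4.0e-09, edgeR) and in Ly6a by 1.28 ± 0.22 (adjusted p = 7.5e-04, edgeR). The Ly6a gap was widest in the young library, with 298 CPM in B against 101 in naive CD4 and 26.8 in naive CD8 T cells. In the same order the values were 340, 233 and 168 CPM in the aged and 325, 187 and 105 CPM in the aged-GA library. Ly6c1 was lower at -5.24 ± 0.19 and Ly6c2 lower at -2.37 ± 0.17 (adjusted p = 7.6e-09 and 1.3e-06, edgeR). The Ly6d change was 6.71 without the young and 8.14 without the aged-GA library. With gates thinned to 1000 UMIs Ly6d was at 6.39, Ly6c1 at -4.07 and Ly6c2 at -3.47, and when cells past several gates were left out Ly6c1 was at -6.78 and Ly6c2 at -3.07. All 5 Ly6 genes that passed the filter were called, in a comparison where 50.8% of all genes were.

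Ly6a in B cells had 298, 340 and 325 CPM, and a UMI was seen in 23.7%, 25.0% and 24.5% of thinned cells. Its log2 ratio aged over young of 0.19 (0.13 to 0.25) came to 0.01 relative to the median of all genes, in contrast to the T cell values. Across B cells, Ly6a was higher with Fcrl5, Zbtb20 or Mzb1 than with Fcer2a in all 3 libraries: 382 against 266, 480 against 300 and 460 against 285 CPM. Those log2 ratios were 0.52 (0.32 to 0.72), 0.68 (0.55 to 0.81) and 0.69 (0.58 to 0.80). Of the 4 Ly6 genes counted in B cells, 0 were past 2-fold aged over young (3.50% of all genes) and 0 aged-GA over aged (0.233%).

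Ly6e was found in every class. Its level was 1206, 1202 and 1141 CPM in B cells, 1247, 1323 and 1266 CPM in nonclassical monocytes, and 1250 and 1140 CPM in the classical monocytes of the aged and aged-GA libraries. T cells had 314 to 624 CPM, NK cells 206, 260 and 222 CPM, and neutrophils 132, 311 and 343 CPM. Monocytes and B cells thus led in each library, followed by memory CD4 T cells among the 4 T cell classes, whose interval overlapped that of naive CD4 T cells in the young library alone.

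No change of Ly6e passed the test between memory and naive cells (0.08 ± 0.08 in CD8 and 0.07 ± 0.10 in CD4 T cells, adjusted p = 0.599 and 0.66, edgeR). The CD4 result depended on normalization, since the tests used TMM and the CPM levels did not. By CPM, memory stood above naive CD4 T cells in each library (548 against 455, 624 against 403 and 479 against 394). With library size alone, Ly6e was called as higher in memory CD4 T cells. It was lower in naive CD8 than in naive CD4 T cells, at -0.25 ± 0.07 (adjusted p = 0.0134, edgeR). That last call was lost with DESeq2 (-0.22, adjusted p = 0.402) and without the young library (-0.10, adjusted p = 0.574, edgeR). Between libraries its log2 ratios in T and B cells stayed within -0.38 and 0.31. The value farthest from 0 was that of memory CD4 T cells aged-GA over aged (-0.38, -0.52 to -0.24).

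In monocytes, Ly6c2 and Ly6i had opposite patterns. Ly6c2 stood at 1123 CPM in classical monocytes of the aged library and at 842 CPM in those of the aged-GA library, against 50.2 and 37.9 CPM in nonclassical cells. The log2 ratio of classical over nonclassical was 4.46 (4.25 to 4.73) and 4.44 (4.08 to 4.90). Ly6i, the close relative of Ly6a, had 17.1 and 25.0 CPM in classical cells against 189 and 129 CPM in nonclassical cells, with ratios of -3.40 (-3.73 to -3.21) and -2.33 (-2.86 to -1.91). Ly6e moved by -0.08 and -0.15 and Ly6a by -0.75 and -0.26, so that 2 of 5 counted Ly6 genes passed 2-fold in each library, beside 14.2% of all genes in the aged and 13.3% in the aged-GA library. The young library had 92.5 CPM of Ly6i and 35.1 CPM of Ly6c2 in its 52 nonclassical monocytes.

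After thinning, a Ly6c2 UMI was seen in 60.7% (57.3 to 64.0) of aged and 47.7% (39.7 to 55.9) of aged-GA classical monocytes. The share was 2.53% and 2.91% in nonclassical ones, with intervals that overlapped those of B cells (1.27% and 1.34%). By CPM, Ly6c2 was higher in nonclassical monocytes than in B cells without overlap, at 50.2 against 15.6 in the aged and 37.9 against 18.5 in the aged-GA library. Ly6i UMIs were seen in 7.69% (2.14 to 18.5), 16.0% (12.8 to 19.6) and 10.7% (6.82 to 15.7) of nonclassical monocytes, and in at most 0.067% of B cells. Nonclassical monocytes held 53.7%, 60.4% and 54.5% of the Ly6i UMIs of kept cells and 0.65%, 5.45% and 1.85% of all UMIs.

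**Figure D4:**
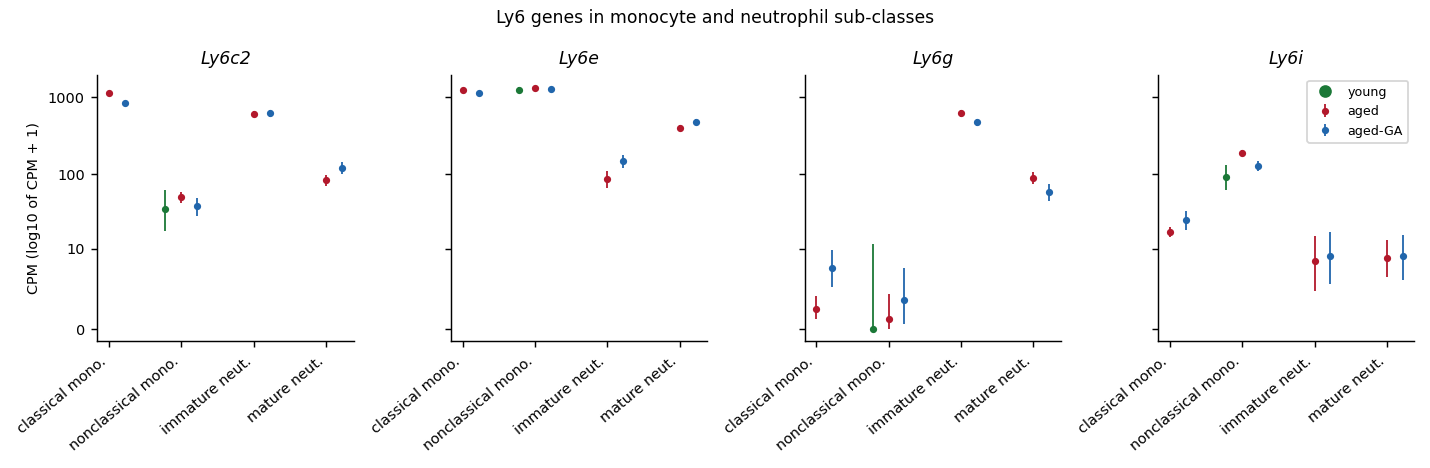
Levels of Ly6c2, Ly6e, Ly6g and Ly6i (CPM, log10 of CPM + 1, exact Poisson 95% intervals) in classical and nonclassical monocytes and in immature and mature neutrophils, for libraries with enough cells of the class. Ly6c2 and Ly6i had opposite orders between the monocyte classes, and Ly6e ran opposite to Ly6c2 and Ly6g between the neutrophil classes.

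Neutrophils were marked by Ly6g, with 599, 235 and 203 CPM there from 50, 690 and 447 UMIs, and at most 5.51 CPM in any other class. These cells held 96.2%, 92.6% and 88.2% of the Ly6g UMIs. Immature neutrophils were gated on the granule genes Ngp, Camp and Ltf, and mature ones on Cxcr2, Il1f9 and Trem1 without granule gene UMIs. They were unlike each other. Ly6g had 619 and 476 CPM in immature and 90.3 and 58.8 CPM in mature neutrophils of the aged and aged-GA libraries, log2 ratios of mature over immature of -2.76 (-3.07 to -2.497) and -2.99 (-3.43 to -2.62).

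Ly6c2 had the same order, with 615 and 619 CPM in immature and 83.5 and 123 CPM in mature neutrophils (-2.87, -3.18 to -2.59, and -2.33, -2.63 to -2.05). Ly6e went the other way, from 86.6 and 148 CPM to 403 and 479 CPM (2.21, 1.85 to 2.61, and 1.69, 1.40 to 2.005). Ly6d, the fourth gene counted, had -0.20 and -0.56. In each library 3 of 4 counted Ly6 genes were past 2-fold, beside 32.0% of all genes in the aged and 31.6% in the aged-GA library. A Ly6g UMI was seen in 39.8% and 38.5% of immature and in 8.57% and 3.79% of mature neutrophils after thinning.

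Aged over young, myeloid ratios rested on few young cells. In nonclassical monocytes Ly6i had a log2 ratio of 1.02 (0.49 to 1.62) and Ly6d of -1.15 (-1.67 to -0.63), 2 of 5 counted genes past 2-fold beside 4.90% of all genes. The 6 B cell markers summed to 472, 230 and 233 CPM in these monocytes, so that Ly6d and the B cell markers were both highest in the young library, and the Ly6d ratio turned to 0.74 with gates read after thinning to 3000 UMIs. In neutrophils 4 of 4 counted genes were past 2-fold, beside 30.9% of all genes: Ly6c2 at -1.51 (-1.91 to -1.09), Ly6g at -1.34 (-1.76 to -0.90), Ly6e at 1.23 (0.39 to 2.24) and Ly6d at 2.04 (-0.38 to 7.44), from 15 young cells and 1 young Ly6d UMI. Of those 15 cells 8 were immature and 6 mature, against 98 and 502 of 847 in the aged library, and the part of this mix in the ratios was not tested.

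Over the 7 classes compared, 10 of 24 counted Ly6 ratios aged over young were past 2-fold, of which 4 were Ly6a in T cells, 2 were in nonclassical monocytes and 4 in neutrophils. The share of all counted genes past 2-fold was 3.49% in naive CD4 and 3.79% in memory CD4 T cells. In naive and memory CD8 T cells it was 3.37% and 5.74%. B cells had 3.50%, nonclassical monocytes 4.90% and neutrophils 30.9%. Ly6c1 in naive CD4 T cells was just short of 2-fold, at -0.96 (-1.37 to -0.59), with 0.31 (-0.14 to 0.77) aged-GA over aged. Ly6c2 had 0.67 (0.44 to 0.90) in naive CD8 and 0.31 (0.22 to 0.41) in memory CD8 T cells, the latter 0.06 relative to the median of all genes in that class.

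Aged-GA over aged, 0 of 32 counted Ly6 ratios were past 2-fold. The share of all counted genes past it was 0.131% in naive CD4, 0.445% in memory CD4, 0.367% in naive CD8 and 0.677% in memory CD8 T cells, 2.02% in classical and 0.618% in nonclassical monocytes and 2.26% in neutrophils. The largest Ly6 ratio in size was that of Ly6c2 in naive CD8 T cells, at -0.997 (-1.30 to -0.71), from 202 to 101 CPM and just short of 2-fold. This one changed sign when cells were gated after thinning to 1000 UMIs (0.34) and was smaller with the same sign at 3000 (-0.34). Ly6c2 was 0.24 (0.18 to 0.31) in memory CD8 T cells and -0.42 (-0.49 to -0.34) in classical monocytes, and Ly6i -0.54 (-0.80 to -0.30) in nonclassical and 0.52 (0.05 to 1.02) in classical monocytes.

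**Figure D5:**
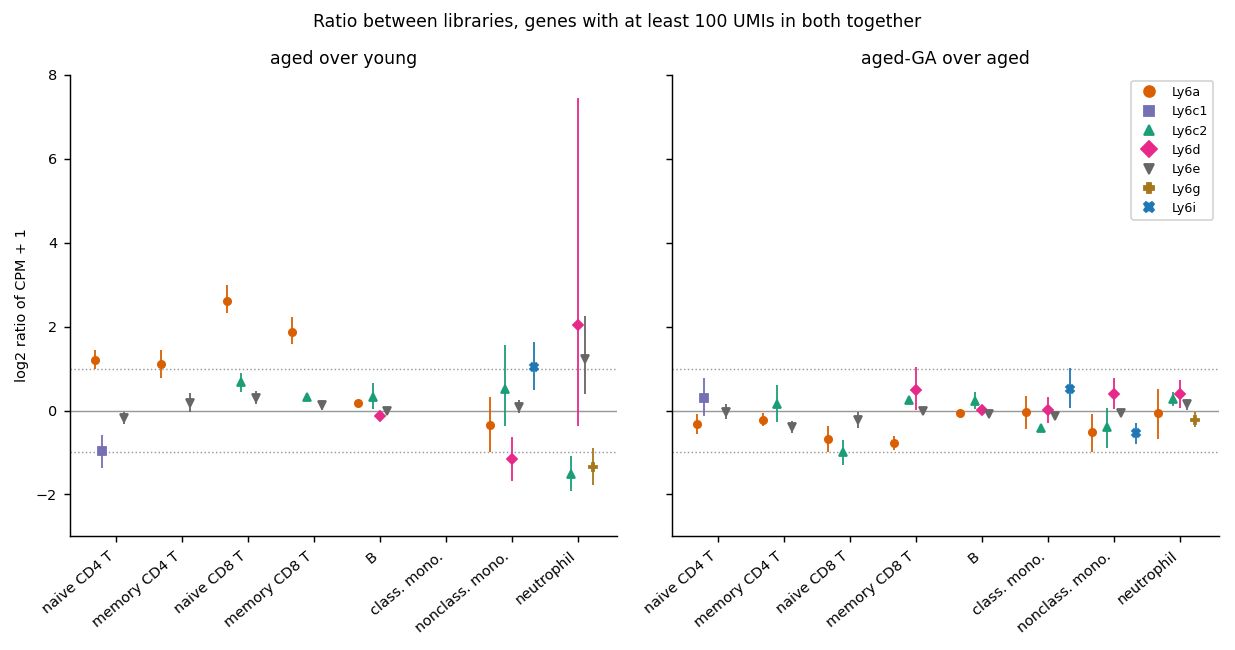
Log2 ratio of CPM + 1 for aged over young and aged-GA over aged, for each Ly6 gene with at least 100 UMIs in both libraries together, by class; bars are exact conditional 95% intervals for counting error only and dotted lines mark 2-fold. Ly6a lay between 1.10 and 2.61 in the T cell classes aged over young, and no ratio aged-GA over aged was beyond a dotted line.

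Most other genes of the family were sparse. The exceptions were Plaur, the urokinase receptor gene, with 4089, 8663 and 7482 UMIs, and Cd177, a surface protein gene of neutrophils, with 77, 1580 and 1023 UMIs, both at their highest level in neutrophils, and no other had more than 447 UMIs in a library. Of 33 others listed, 32 were in the matrices, and 3 passed the filter on low counts in each T cell comparison and 6 in B against naive T cells. In memory CD8 T cells 3 of 3 were lower and 0 higher than in naive ones, and in memory CD4 T cells 2 of 3 were lower, among them Plaur, at -1.72 and -2.42. In naive CD8 against naive CD4 T cells 1 was higher (Plaur, 0.56) and 0 lower. In B cells 4 were higher, among them Ly6m (4.60), Lynx1 (3.11) and Plaur (2.04), and 2 lower, Lypd6b (-5.46) and Ly6k (-0.70). Over all genes, 17.0%, 22.5%, 13.7% and 50.8% were called in either direction in these comparisons, in the same order. The list's median log2 change in these comparisons was -1.72, -2.22, 0.41 and 2.44, beside -0.01, -0.01, 0.00 and 0.03 over all genes.

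Interferon-response genes were listed because Ly6a and Ly6e are known to respond to interferon. Of 33 listed genes, 32 were tested in each comparison: 0 were higher and 5 lower in memory against naive CD8 T cells, 3 and 5 in memory against naive CD4, 1 and 5 in naive CD8 against naive CD4, and 3 and 18 in B against naive T cells. In the same order, 17.0%, 22.5%, 13.7% and 50.8% of all genes were called in either direction. The 3 that were higher in memory CD4 T cells were Oas1a (1.90), Ifi27l2a (0.96) and Psmb8 (0.30). Igtp, an interferon-induced GTPase gene, was lower in all 4, at -0.81, -0.82, -0.38 and -2.74. Aged over young, the list's median log2 ratio was 0.41 in naive CD4, 0.35 in memory CD4, 0.53 in naive CD8 and 0.37 in memory CD8 T cells, beside medians over all genes of 0.10, 0.00, 0.13 and 0.25. Aged-GA over aged the medians of the list were 0.03, -0.45, -0.21 and -0.15, beside 0.02, -0.01, 0.01 and -0.07. Past 2-fold upward aged over young were 1 of 21 counted genes of the list in naive CD4, 0 of 11 in memory CD4, 3 of 24 in naive CD8 and 2 of 23 in memory CD8 T cells. Over all counted genes these were 106 of 4644, 50 of 2006, 117 of 4987 and 267 of 5329. Neutrophils, where Ly6e had its ratio of 1.23, had a list median of 1.46 with 14 of 23 past 2-fold upward, against the 15 young neutrophils and beside 0.18 over all genes. Among all counted genes in neutrophils 584 of 2694 were past 2-fold upward. In B cells the list median was 0.33, with 0 of 31 past 2-fold upward beside 224 of 9069 over all genes. In nonclassical monocytes it was 0.13, with 1 of 17 beside 155 of 4221.

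The genes with patterns most like each member were found over 31 profiles (class by library, with at least 10 cells) by Pearson's r of log2(CPM + 10), as a description, since the profiles share libraries. Ly6d ran with Cd79b (r = 0.957), H2-Eb1 and Iglc3, genes of the B cell receptor and antigen presentation. Ly6g went with Ceacam10 (0.996), Itgb2l and Ngp, and Ly6i with Tcea3 (0.986), Il27 and Ace. Of these genes, Cd79b, Ngp and Ace were among the gate markers. Ly6c1 was closest to Pdlim4 (0.915), Myo10 and Gm13546, Ly6e to Dnase2a (0.872), Filip1l and Csrp2, and Ly6a to Dgke (0.839), Mast4 and Ralgds. The weakest likeness was that of Ly6c2, high in cells of several lineages, with Gas7 (0.716), Glipr2 and Gpr160.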

How the data were processed

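Blood mononuclear cells were measured on the Chromium 3′ platform (version 3 kit), with 1 library for each of the young, aged and aged-GA groups. The values deposited by the authors are raw UMI counts, not normalized, for every gene in every barcode. The file headers name Cell Ranger 5.0.0, the study's methods another version, and the submitters' processing notes the build mm10; the annotation was not given in the sources used here.

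From the deposited counts, cells were kept by the limits of the study's methods (200 genes or more, no more than 90% of the highest gene number, no more than 7.5% of UMIs mitochondrial), and library totals are 48249945, 53770440 and 75832322 UMIs in kept cells. Doublets were limited by genes alone, and the 4.81% to 4.94% of cells with the highest Scrublet scores (scanpy 1.11.5) were left out in an alternative, since the automatic limit called 437 young, 451 aged and 0 aged-GA cells. Cells were gated by detected markers: 3 of 4 for T, 3 of 6 for B, 2 of 4 for NK, 5 of 7 for monocytes and 4 of 11 for neutrophils. A cell past several gates was kept where 1 class had at least 3 times the marker UMIs of any other. Naive T cells had at least 2 of 5 naive and at most 2 of 10 memory markers, and memory T cells at least 4 memory markers and more of them than naive ones. Immature neutrophils had at least 2 of 3 granule genes, and mature ones at least 2 of 3 mature markers and no granule gene. B cells described by Fcrl5, Zbtb20 or Mzb1 had at least 2 of these 3 genes and no Fcer2a. Those described by Fcer2a had none of these 3. For shares of cells, every cell was thinned to 1000 UMIs, which all gated T cells reached, as did 827 of 847 aged neutrophils. The members, gates and lists were chosen with earlier results of these data known, and the named genes are the members, markers, list genes and the 3 genes most like each member.

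UMIs summed per library and class were tested with edgeR 4.0.16 in R 4.3.3 (TMM, filterByExpr, quasi-likelihood, threshold 0.05), with the library as a block, and with DESeq2 1.42.0 as an alternative. On simulated counts with 200 changed genes the fit recovered 94.9% of those tested for memory against naive CD8 T cells (9302 genes), 95% for CD4 (8025), 98.5% for naive CD8 against CD4 (8138) and 96.5% for B against naive T cells (11352). The simulated counts had the same spread for every gene and no difference between libraries other than depth. The changed genes all had at least 100 UMIs and the same size of change, so these shares do not give the power of the real tests. Between libraries, log2 ratios of CPM + 1 were taken for genes with at least 100 UMIs in both libraries together, with exact conditional intervals (scipy 1.17.1). Positions and transcripts came from the GENCODE annotation of GRCm38, and promoters from RefSeq. A split of memory CD8 T cells by 1 marker is not reported here.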

Additional observations from a re-analysis of the deposited data

Results flagged for a closer look

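Several Ly6 genes moved in opposite directions in a pair of classes under the same contrast, with counting intervals on either side of 0. With 1 library per group these differences were not tested. Aged-GA over aged, Ly6c2 had a log2 ratio of -0.997 in naive CD8 T cells but 0.24 in memory CD8 T cells, 0.23 in B cells and 0.27 in neutrophils, differences of 1.24, 1.22 and 1.27. The naive CD8 value was 0.34 with gates thinned to 1000 UMIs, the B cell value -0.25 when cells past several gates were left out, and the neutrophil value 0.10 relative to the median of all genes. Aged over young, Ly6c2 was at -1.51 in neutrophils, of which the young library held 15, against 0.67 in naive CD8 T cells, 0.31 in memory CD8 T cells and 0.31 in B cells, differences of 2.17, 1.82 and 1.82. Ly6e had 1.23 in neutrophils and -0.17 in naive CD4 T cells aged over young, a difference of 1.41, and the naive CD4 value was 0.66 with gates thinned to 1000 UMIs. Ly6i had 0.52 in classical and -0.54 in nonclassical monocytes aged-GA over aged, a difference of 1.07, and the classical value was -0.09 when cells past several gates were left out. The young library was at both ends of the neutrophil values, and the aged-GA library had 155 classical and 207 nonclassical monocytes.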

How the results depend on the processing

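Across DESeq2, library size alone, no filter, other gates and each library left out, 267 of the values of single Ly6 genes in the class comparisons kept their side of the threshold, 2 gained a call and 3 lost it. Direction was followed only for genes called in the main setting. The gains were Ly6a in memory against naive CD8 T cells without the young library and Ly6e in memory against naive CD4 T cells with library size alone (0.40, adjusted p = 0.0049, edgeR), and the losses were Ly6e in naive CD8 against naive CD4 T cells. A limit of 500 genes per cell gave the main setting's 1595, 1866 and 1142 calls in the T cell comparisons, so its values there add no check. With gates read after thinning to 1000 UMIs, 1 Ly6 gene instead of 2 was called in memory against naive CD8 T cells (Ly6c2, at 0.93 instead of 2.26, while Ly6c1 did not pass the filter), and memory against naive CD4 could not be run, since the young library kept 0 memory CD4 T cells. Every fit held the library as a block, because both classes come from the same libraries. No paired analysis between young, aged and aged-GA was possible because each has 1 library and no test.

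The ratios between libraries gave 577 values over all alternatives, with each ratio counted once per alternative. Of these values, 524 lay within the counting interval of the reported ratio or moved only slightly, and 52 moved by more. In 1 value a ratio past 2-fold changed sign, that of Ly6d in nonclassical monocytes aged over young, to 0.74 with gates thinned to 3000 UMIs. In all, 28 of 577 had the other sign, among them 10 from 9 ratios whose interval excluded 0, such as Ly6c2 in naive CD8 T cells aged-GA over aged (0.34 with gates thinned to 1000 UMIs). Past 2-fold aged over young were 5 of 13 counted with gates thinned to 1000 UMIs and 5 of 19 at 3000, the latter chosen after seeing the data, instead of 10 of 24. The share of all genes past 2-fold was taken in the main setting only. Aged-GA over aged, 1 ratio instead of 0 was past 2-fold without haemoglobin, mitochondrial, ribosomal, immunoglobulin and T-cell receptor genes, relative to the median ratio, and without shared barcodes (Ly6c2 in naive CD8 T cells each time, at -1.02, -1.01 and -1.0003), 1 when cells past several gates were left out (Ly6a in nonclassical monocytes, -1.48), and 2 with gates thinned to 3000 (Ly6c2 in memory CD4, 1.56, and Ly6d in memory CD8 T cells, 1.04). Shares of cells above their background numbered 49 of 126, and 28 of 114 with gates thinned to 1000 UMIs. The cause of these moves was not tested, beyond the smaller number of cells in thinned gates.

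Over all genes, calls fell from 1595, 1866, 1142 and 5927 to 678, 910, 390 and 4500 with DESeq2. Library size alone turned the split of higher and lower calls from 873 and 722 to 1308 and 414 in memory against naive CD8, from 1019 and 847 to 2221 and 393 in memory against naive CD4, from 579 and 563 to 427 and 857 in naive CD8 against CD4, and from 3036 and 2891 to 4170 and 2144 in B against naive T cells. Leaving out a library gave 801 to 1614, 1154 to 2052, 742 to 950 and 4740 to 5176 calls, with 2 to 3, 3, 3 to 4 and 5 Ly6 genes called; the lowest counts came without aged-GA for CD8 and B cells, without aged for CD4 and without young for naive CD8 against CD4. Gates thinned to 1000 UMIs gave 479, 151 and 2940 calls in the 3 comparisons that could be run.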
